A study of Mus musculus with 6 samples.

Results

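Chromosome 15 was examined in 5 mouse malignant mesotheliomas, tumours of the lining of the body cavities. Its members were the 9142 probes placed on chromosome 15 by the one array file that states the mouse mm7 build, out of 235402 probes of the denser array design. The sparser design was joined to them by probe name, which left 1610 chromosome 15 probes of 41925 shared names. The chromosome was chosen because earlier results of these data showed it gained, so its levels are given as a description and carry no test.

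The study used array comparative genomic hybridisation, in which tumour DNA and normal DNA, labelled with different dyes, compete for the same probes. Tumour DNA (ARF-129, ARF-112, ARF-110, ARF-104 and ARF-128) carried Cy5 on every array, and DNA of C57BL/6J mice from Jackson Laboratories carried Cy3, with no dye swap. The labels call the tumours primary malignant mesothelioma cells, except ARF-104, for which no cell type is given. The study's description names 4 Arf(+/-) mice, which have 1 inactivated copy of Arf, while the titles name 5 tumours, and no source used here says which tumour lies outside the 4. ARF-110 was hybridised to the sparser design of 44050 spots, ARF-129, ARF-112 and ARF-104 to the denser design of 243301 spots, and ARF-128 to both. For ARF-128 the title of the denser array is ARF-128PlusMinus, an addition that no source used here explains. It stands for that tumour below unless the sparser array is named. All 5 tumours form 1 group, and every value is a log2 ratio of tumour over C57BL/6J, centred on each array's autosomal median.

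Mouse chromosome 15 carries Myc, a transcription factor that drives cell growth and division, and a long stretch that corresponds to part of the long arm of human chromosome 8, which is often gained in cancers. Extra copies of a whole chromosome arise by mis-segregation at mitosis, whereas a gain that stops inside a chromosome needs a break. A gain of 1 copy in every cell of a diploid tumour would give a log2 ratio of 0.58, or 150% of the reference level, and normal cells in a sample bring that value down.

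The probes are unique genomic 60-mers or slightly shorter ones, and those on which the results turn are shown here from the deposited file, 5′ to 3′, with G and C in capitals because the G+C share of the probes comes up again below. Positions are mm7, on chromosome 15. The first pair lies on either side of the point where the gain of ARF-104 ended, at 69260184 to 69260243 and at 69295540 to 69295599, once probe deviations shared between arrays were removed. On the values as they are, the first of these probes, at 0.14 in ARF-104, was already the first past the break. Neither probe carries a gene name. The Myc probe (62060783 to 62060842) is the only probe of that gene. The Mtss1 and Triobp probes (59086519 to 59086577 and 79052339 to 79052398) lie in short stretches that were lower in ARF-104 once shared probe deviations were removed. The plexin B2 probe (89249635 to 89249691), the Cox6c probe (36046640 to 36046699) and the Osr2 probe (35406866 to 35406925) stood far from their neighbours.
last probe before the ARF-104 breakpoint, shared deviations removed: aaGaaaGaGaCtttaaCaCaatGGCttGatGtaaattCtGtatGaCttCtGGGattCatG
first probe past the ARF-104 breakpoint, shared deviations removed: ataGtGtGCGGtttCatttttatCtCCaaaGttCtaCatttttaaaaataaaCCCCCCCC
Myc: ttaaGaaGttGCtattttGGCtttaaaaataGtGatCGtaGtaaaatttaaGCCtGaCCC
Mtss1: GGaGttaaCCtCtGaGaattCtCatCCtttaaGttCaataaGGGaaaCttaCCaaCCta
Triobp: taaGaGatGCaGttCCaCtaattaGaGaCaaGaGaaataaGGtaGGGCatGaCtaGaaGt
plexin B2 (BC031202): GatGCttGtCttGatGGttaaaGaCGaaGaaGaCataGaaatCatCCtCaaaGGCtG
Cox6c: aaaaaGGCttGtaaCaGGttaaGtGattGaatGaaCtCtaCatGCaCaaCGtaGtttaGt
Osr2: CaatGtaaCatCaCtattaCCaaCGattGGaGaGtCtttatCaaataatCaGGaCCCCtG

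The G+C share was 35% in both probes at the ARF-104 breakpoint, 31.7% in the Myc probe and 40.4% in the plexin B2 probe, against a mean of 36.8% (SD 2.69) over all chromosome 15 probes. The DNA was cut with AluI and RsaI before labelling. Their sites, AGCT and GTAC, which read the same on both strands and do not overlap each other, were each found in 1 of the 9142 chromosome 15 probes (0.0109%), against 0.0217% and 0.0136% of all probes.

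Chromosome 15 was raised over its whole length in 3 tumours, over its proximal part in 1, and did not reach the call threshold in 1. The mean over the chromosome was 0.62 in ARF-129, 0.52 in ARF-112, 0.46 in ARF-110, 0.19 in ARF-104 and -0.03 in ARF-128, whose sparser array gave 0.16. The standard errors over probes were between 0.0045 and 0.011. These correspond to 154%, 144%, 138%, 114% and 97.8% of the C57BL/6J level, and to 111% on the sparser array of ARF-128. The mean over the 5 tumours was 0.35 ± 0.27 (SD, n = 5), and 0.39 ± 0.21 (SD, n = 5) with ARF-128 taken from its sparser array. These standard errors cover the noise of probes within 1 array only, and the arrays of ARF-128 lay further apart than that. With another background correction (normexp) the levels were lower in ARF-129 and ARF-112, at 0.32 and 0.31, and remained 0.46 in ARF-110.

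Among the 19 autosomes, chromosome 15 had the highest mean in ARF-112 and ARF-129 and ranked 2 in ARF-110, 3 in ARF-104, 6 on the denser array of ARF-128 and 3 on its sparser array. The highest autosome was chromosome 19 in ARF-110, at 0.51, chromosome 8 in ARF-104, at 0.43, and chromosome 19 on the denser and sparser arrays of ARF-128, at 0.45 and 0.43. Probes above 0 made up 98.7% of chromosome 15 in ARF-110, against 48.0% on the other autosomes. The share was 89.5% against 48.3% in ARF-112, 88.2% against 48.3% in ARF-129, 69.2% against 49.2% in ARF-104 and 49.5% against 50.02% in ARF-128. ARF-110 thus had the largest share of raised probes, on the array with the least noise.

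The arrays differed in precision. The noise between neighbouring probes was an SD of 0.49 in ARF-129, 0.39 in ARF-112, 0.15 in ARF-110 and 0.36 in ARF-104. ARF-128 had 0.78 on its denser and 0.43 on its sparser array. The chromosome 15 probes of the denser design lay a median of 7825 bp apart and those of the sparser design 21979 bp, and at least 99.5% of their spots were well above background in both channels on every array, with none saturated. ARF-104, ARF-112 and ARF-129 were scanned on 1 day, ARF-110 and the sparser array of ARF-128 on another, and the denser array of ARF-128 on its own. The deviation of a probe from its own segment recurred between arrays, with r = 0.92 between ARF-112 and ARF-129 over 9138 probes, 0.91 between ARF-104 and ARF-112 and 0.88 between ARF-104 and ARF-129. It was 0.53 between ARF-110 and the sparser array of ARF-128, also scanned on 1 day. Across scan days it ranged from 0.13 for ARF-110 with the denser array of ARF-128 to 0.73 for ARF-129 with the sparser array of ARF-128. These correlations are across probes, which share an array and a sequence, and describe the arrays only. A deviation of 1 probe that recurs in several tumours therefore does not count as a separate observation in each.

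**Figure D1:**
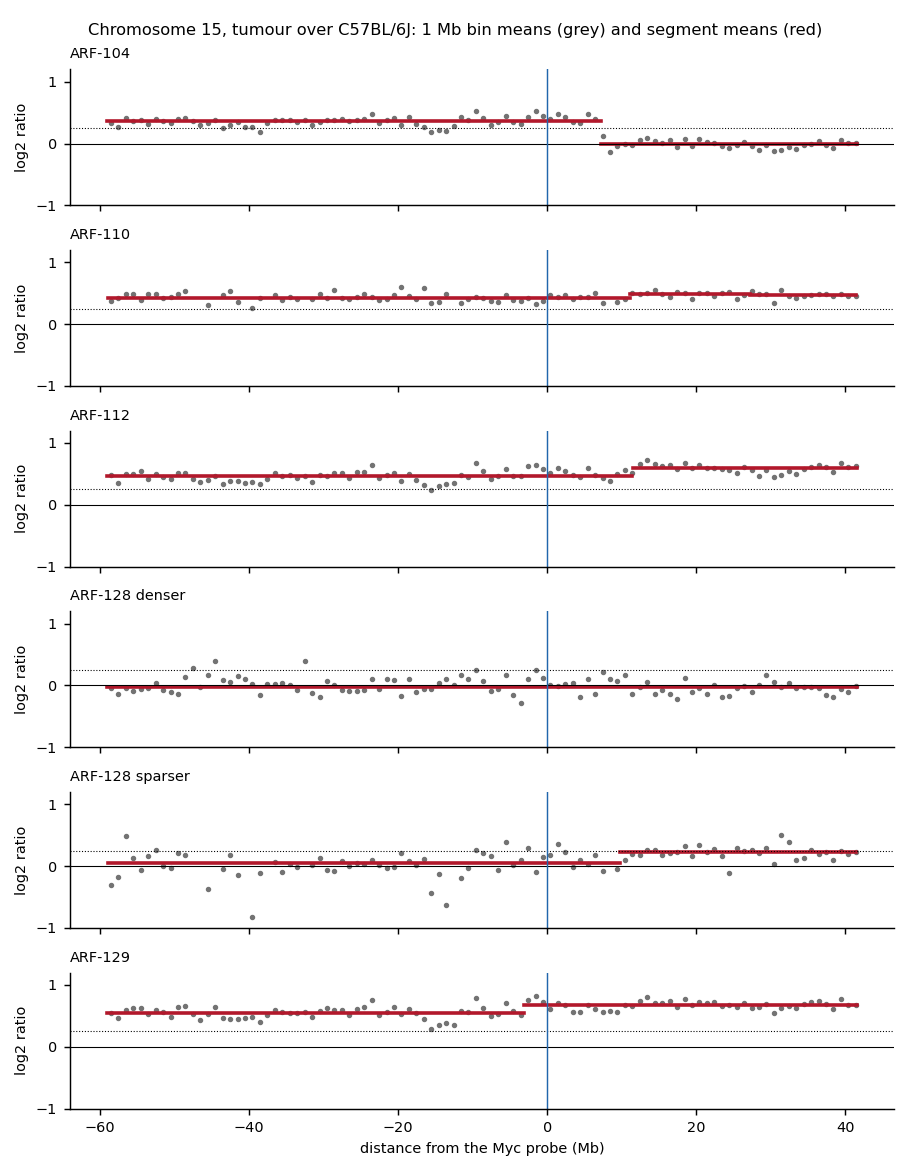
The vertical axes give the log2 ratio of tumour over C57BL/6J for 1 Mb bins of chromosome 15 (grey points) and for segments (red lines) on the 6 arrays, against the distance from the Myc probe in Mb (blue line); the dotted line marks the call threshold of 0.25. The segments of ARF-110, ARF-112 and ARF-129 lie above the threshold from end to end, although the lowest bin of ARF-112 is at 0.23. The segment level of ARF-104 drops to -0.01 beyond 7.17 Mb past Myc, and neither array of ARF-128 has a segment at the threshold.

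Segments, stretches of probes with 1 mean, were called gained at a mean of 0.25 or more. All 101 bins of 1 Mb on chromosome 15 were called gained in ARF-112, all 101 in ARF-129, and all 93 bins with a probe in ARF-110. Over all autosomes the share called gained was 8.71%, 20% and 12.9% of bins on those arrays. In ARF-104, 66 of 101 bins (65.3%) were called gained, against 17% over all autosomes. No bin was called gained on either array of ARF-128, against 7.7% of autosomal bins on the denser array and 7.89% on the sparser one. No array had a chromosome 15 bin called lost. Of all the gained bins of ARF-112, 48.6% were on chromosome 15, and the share was 33.0% in ARF-110, 21.1% in ARF-129 and 16.2% in ARF-104.

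Gains were shared by at least 3 tumours at all 93 bins with a value in every tumour, against 12.3% of bins over all autosomes. At least 4 tumours shared a gain at 59 of the 93 (63.4%), against 5.28% over all autosomes. The chromosome was chosen for this recurrence, so these counts describe it and nothing is read from the contrast. The stretch shared by 4 tumours ran from the first probe to the ARF-104 breakpoint, and therefore contains Myc.

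By windows of 10 Mb the level of each gained tumour was nearly flat. The lowest and highest window means were 0.39 and 0.50 in ARF-110, 0.40 and 0.61 in ARF-112, and 0.49 and 0.69 in ARF-129, so that the highest window exceeded the lowest by 0.11, 0.21 and 0.20. In ARF-104 the windows from the start of the chromosome to 70 Mb lay between 0.31 and 0.39, and those beyond 70 Mb between -0.04 and 0.01. The denser array of ARF-128 stayed between -0.09 and 0.04. Its sparser array lay between -0.04 and 0.10 up to 70 Mb and between 0.20 and 0.24 beyond.

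The one large step on the chromosome was in ARF-104. The 5037 probes up to 69226662 averaged 0.36 ± 0.0054 (SE), and the 4100 probes from 69260184 to the end averaged -0.009 ± 0.0063 (SE). The proximal part was thus at 128.3% of the reference level and the distal part at 99.4%. The 20 probes next to the break averaged 0.39 ± 0.081 (SE) on the proximal side and -0.08 ± 0.053 (SE) on the distal side. Because probe deviations are shared between arrays scanned on the same day, the mean deviation of each probe in ARF-112 and ARF-129 was also subtracted from ARF-104, which lowered the noise to 0.17. The 20 probes on each side then averaged 0.46 ± 0.029 and -0.008 ± 0.026 (SE), and the break moved by 1 probe, to between 69260243 and 69295540. Positions whose fit came within a likelihood ratio of 20 of the best one ran from 69160415 to 69395752 on the probe values as they are and from 69295540 to 69347194 after the subtraction, if probe noise is independent.

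No named gene of the denser design lay between the probes on either side of the best-fitting break. Khdrbs3, whose probes end at 69177515, and the transcript AK014353 reached into the range given for the values as they are, which began at 69160415. Neither reached into the range after the subtraction. The distances below are measured from the break on the values as they are. The nearest probe with a gene name on the proximal side belonged to the transcript AK014353, 44008 bp away from the last probe before the break, and the nearest gene with a current symbol was Khdrbs3, which encodes an RNA-binding protein of the STAR family, 49147 bp away. On the distal side the nearest were the transcript AK139312, 761865 bp away, and Fam135b, 2271441 bp away. Khdrbs3, with 19 probes, had 0.57 in ARF-129, 0.45 in ARF-112, 0.38 in ARF-110, 0.40 in ARF-104 and -0.04 in ARF-128. Whether the probes are exonic or intronic was not determined, as no mm7 annotation was used here.

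**Figure D2:**
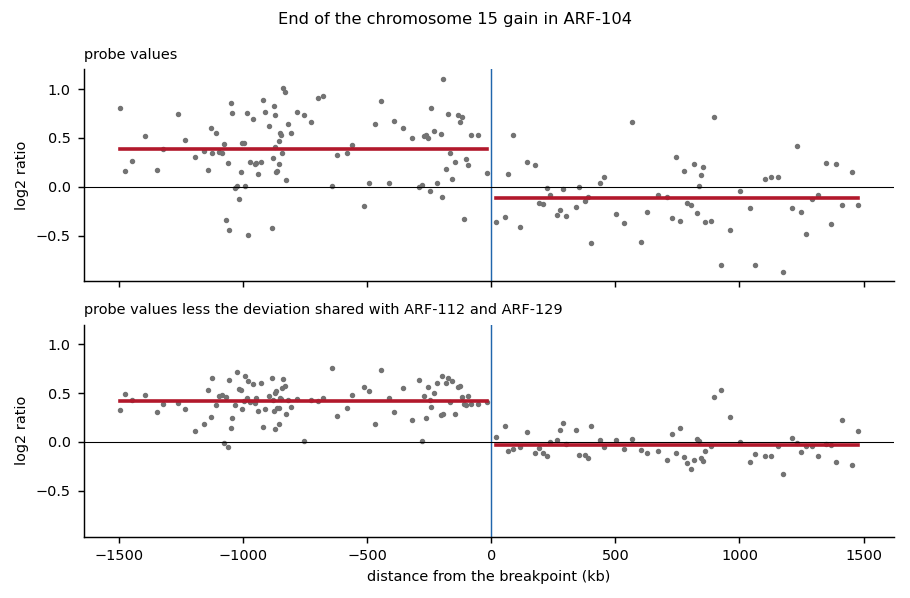
Both panels show ARF-104 probes by their distance in kb from the breakpoint (blue line), with the log2 ratio of tumour over C57BL/6J on the vertical axis and red lines at the mean of the probes plotted on each side; the lower panel subtracts the mean probe deviation of ARF-112 and ARF-129. The probes distal to the break lie about 0 and the proximal ones about the raised level in both panels, with noise of 0.36 in the upper and 0.17 in the lower panel.

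ARF-129, ARF-112, ARF-110 and the sparser array of ARF-128 had small steps upward towards the distal end. ARF-110 also stepped up and down again around a segment of 5 probes described further on, past which its level was 0.47. ARF-112 stepped from 0.47 to 0.60 between 73508589 and 73522506, inside the transcript AK011235 and 33290 bp past the last probe of Ptk2, the focal adhesion kinase. ARF-129 stepped from 0.55 to 0.68 between 58992672 and 59003150, between Tatdn1 and Ndufb9, a subunit of mitochondrial complex I. ARF-110 stepped from 0.43 to 0.50 between 73194326 and 73209686, inside Ago2, the small-RNA-guided nuclease. The sparser array of ARF-128 stepped from 0.06 to 0.23 between 71806283 and 71863688, the second level lying just under the threshold. The ratio of ARF-129 to ARF-112, taken probe by probe, formed a single segment along the whole chromosome with a difference of 0.10 ± 0.0022 (SE), so no step separated these 2 arrays from each other. The places of the small steps moved with the setting. With the deviations shared by the other arrays of the same scan day removed, the step of ARF-129 lay between 73179001 and 73184565, and ARF-112 had steps between 58011618 and 58019103 and between 73714644 and 73725160. With normexp ARF-129 had 59 segments and ARF-112 10, and with a lower segment penalty (2 log n) these arrays had 4 and 7.

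The small steps went with the base composition of the probes. Probes averaged 37.3% G+C distal to the ARF-104 breakpoint and 36.4% proximal to it. Base composition and position thus ran together on this chromosome, and correlations along it cannot tell them apart. Which of them the small steps followed was not tested. Across the bins of chromosome 15, the level correlated with the G+C share of the probes at r = 0.75 in ARF-112, against 0.28 on the autosomes other than 8, 12, 15 and 19. The correlation was 0.69 against 0.20 in ARF-129, 0.36 against 0.15 in ARF-110 and 0.54 against 0.22 on the sparser array of ARF-128. It was -0.44 against 0.18 in ARF-104 and -0.17 against -0.02 on the denser array of ARF-128. Bins of 1 array share 1 hybridisation, so these values describe the arrays only. A quadratic in the G+C share of the probe and of its bin was then fitted on those other autosomes and subtracted, a step chosen after seeing the data. Chromosome 15 was left with 1 segment on every array except ARF-104, which kept its 2. The distal minus proximal difference, 0.12 ± 0.0090 (SE) in ARF-112, became -0.0006, that of ARF-129, 0.12 ± 0.011, became 0.04, and that of ARF-110, 0.05 ± 0.0099, became 0.005. On the sparser array of ARF-128 it was 0.17 ± 0.023 before and 0.05 after. ARF-104 moved the other way, with -0.37 ± 0.0083 before and -0.44 after, and the chromosome means were 0.60 in ARF-129, 0.49 in ARF-112, 0.45 in ARF-110, 0.18 in ARF-104, and -0.02 and 0.13 on the denser and sparser arrays of ARF-128.

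**Figure D3:**
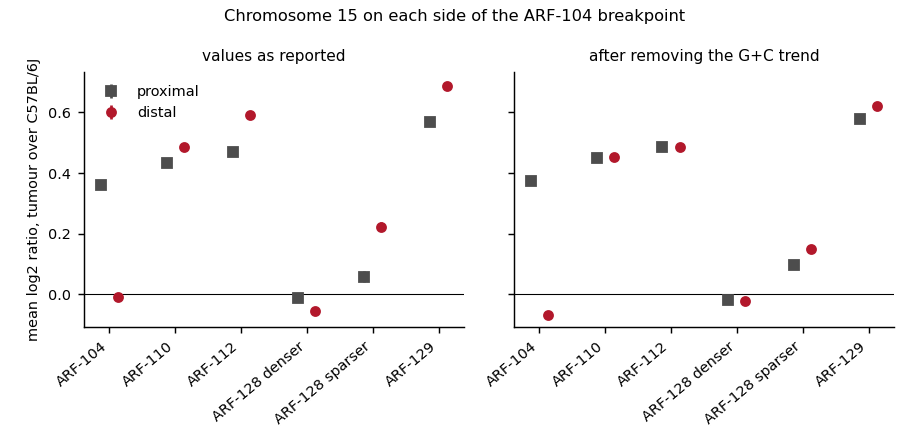
For each array the mean log2 ratio of tumour over C57BL/6J is plotted for chromosome 15 probes proximal (grey squares) and distal (red circles) to the ARF-104 breakpoint, on the left as reported with SE bars over probes, which are smaller than most symbols, and on the right, without bars, after the G+C trend was removed. The distal part is higher on the left in ARF-110, ARF-112, ARF-129 and the sparser array of ARF-128 and within 0.06 of the proximal part on the right, while ARF-104 keeps its difference of -0.44.

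ARF-110 also had a segment of 5 probes, from 89229790 to 89254437, with a mean of 1.05 ± 0.52 (SE). It held 2 probes of Mapk11, a p38 stress kinase, 2 of a transcript of plexin B2, a semaphorin receptor, and 1 without a gene name. A single plexin B2 probe, the one shown above, read 3.13 in ARF-110, and the other 4 averaged 0.53, between 0.48 and 0.61, close to the rest of the chromosome. The same probe had 1.65 in ARF-129, 1.33 in ARF-112, 0.33 in ARF-104, and -2.47 on the denser and 1.19 on the sparser array of ARF-128. The segment thus rested on 1 probe of 1 array.

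With shared probe deviations removed, 2 short stretches of ARF-104 stood below their surroundings. The first covered 11 probes over 77566 bp, from 59022044 to 59099609, all of Mtss1, an actin-binding protein at the cell membrane. Those probes averaged 0.18 in ARF-104, with 1.05 in ARF-129, 0.89 in ARF-112 and 0.52 on the denser array of ARF-128. ARF-104 minus the mean of ARF-112 and ARF-129 was -0.79 ± 0.082 (SE) inside the stretch, -0.18 ± 0.031 in the 11 probes before it and -0.19 ± 0.053 in the 11 after it. Only 1 of its probes is on the sparser design, where it read 0.53 in ARF-128 and 0.52 in ARF-110.

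The second stretch covered 6 probes over 25741 bp, from 79052339 to 79078079, all of Triobp, which encodes another actin-binding protein, in the distal part of ARF-104 that was not gained. They averaged -0.45 in ARF-104, with 0.97 in ARF-129, 0.84 in ARF-112 and -0.39 on the denser array of ARF-128. The difference of ARF-104 from the mean of ARF-112 and ARF-129 was -1.36 ± 0.035 (SE), each probe lying between -1.52 and -1.27. In the 6 probes before the stretch the difference was -0.74 ± 0.088, and in the 6 after it -0.79 ± 0.14. On the values as they are, the 6 probes before it averaged 0.09 in ARF-104 and the 6 after it -0.54. The latter were thus lower than the stretch itself before the subtraction. Both stretches were picked by segmenting these same values, so the differences carry no test. The subtraction uses ARF-112 and ARF-129 for both stretches, and which array set the difference was not tested. Segmenting ARF-104 minus ARF-112 and ARF-104 minus ARF-129 separately gave the Mtss1 stretch in both, with -0.71 ± 0.064 and -0.87 ± 0.10 (SE), and the Triobp stretch only against ARF-112, with -1.25 ± 0.063 over 7 probes.

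**Figure D4:**
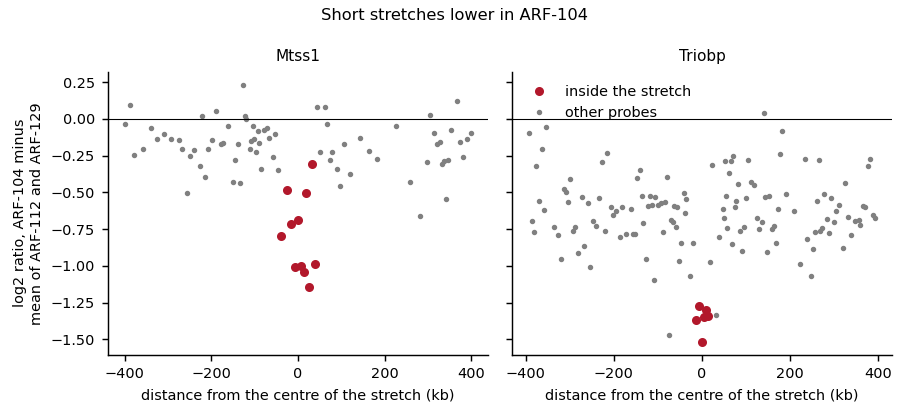
The vertical axis gives the log2 ratio of ARF-104 minus the mean of ARF-112 and ARF-129 for each probe, against its distance in kb from the centre of the Mtss1 and Triobp stretches. The 11 red points of Mtss1 average -0.79 and the 6 of Triobp -1.36, below most of the grey points around them.

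Within 1 Mb of Myc the level of each of the 5 tumours was close to that of the surrounding segment. The probes within 1 Mb of the Myc probe averaged 0.65 ± 0.044 (SE, 138 probes) in ARF-129, 0.53 ± 0.034 in ARF-112, 0.47 ± 0.051 (7 probes) in ARF-110, 0.41 ± 0.034 in ARF-104 and 0.04 ± 0.064 in ARF-128, whose sparser array gave 0.18 ± 0.18 over 7 probes. The mean over the 5 tumours was 0.42 ± 0.23 (SD, n = 5). Relative to the segment that holds it, this neighbourhood deviated by -0.03 ± 0.044 (SE) in ARF-129, 0.07 ± 0.034 in ARF-112, 0.04 ± 0.051 in ARF-110, 0.05 ± 0.034 in ARF-104 and 0.07 ± 0.064 in ARF-128. None of these deviations exceeded 0.07 in size. The standard errors are over probes of 1 array, whose deviations recur between arrays, so they are no test. Within 3 Mb the level was somewhat above the segment on 4 arrays. The deviation was 0.10 ± 0.020 (SE) in ARF-112, 0.08 ± 0.018 in ARF-104, and 0.08 ± 0.038 on the denser and 0.16 ± 0.070 on the sparser array of ARF-128. It was 0.01 ± 0.025 in ARF-129 and 0.006 ± 0.025 in ARF-110. In the values as they are, no segment at the penalty used began or ended within 3 Mb of Myc on any array. With shared deviations removed, the Mtss1 stretch of ARF-104 ended at 59099609, just inside that distance. The nearest step lay 3.06 Mb away in ARF-129, 7.17 Mb in ARF-104, 11.1 Mb in ARF-110 and 11.4 Mb in ARF-112. A high-level amplification around Myc, wide enough for a segment of at least 5 probes, was therefore not seen. A narrower one could not be judged in this way, since Myc itself is read by 1 probe.

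The Myc probe itself read 1.12 in ARF-129, 0.93 in ARF-112, 0.59 in ARF-110, 0.91 in ARF-104, and -0.61 on the denser but 0.50 on the sparser array of ARF-128. It exceeded its own segment by 0.44 in ARF-129, 0.46 in ARF-112, 0.16 in ARF-110, 0.55 in ARF-104 and 0.44 on the sparser array of ARF-128, and fell by 0.57 below it on the denser array of ARF-128. Within 1 Mb the design names 5 other transcripts. AK043790, with 22 probes, had 0.77 in ARF-129, 0.63 in ARF-112, 0.46 in ARF-110, 0.52 in ARF-104 and 0.03 in ARF-128. AK144854, with 41 probes, had 0.56 in ARF-129, 0.48 in ARF-112, 0.38 in ARF-104 and 0.06 in ARF-128, and no value on the sparser design. AK163289, with 16 probes, had 0.64, 0.50, 0.32 and -0.27 in the same order. AK132805 and AK132958, with 2 and 3 probes, lay between 0.16 and 0.69 in ARF-129, ARF-112 and ARF-104. All were above 0 in the tumours with a gain, and the single Myc probe was the highest of the named values in each of them. That ranking sets 1 probe against means of several probes. The highest single probe within 1 Mb read 1.83 in ARF-129, 1.39 in ARF-112, 0.71 in ARF-110 and 1.25 in ARF-104, above the Myc probe in each.

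The genes were placed by their own probes. Of 1020 genes named on chromosome 15, 798 had a probe in all 5 tumours, and 342 of these (42.9%) had a mean of 0.25 or more in at least 4 tumours, against 10.1% over all autosomes. Above 0 in all 5 tumours were 277 genes (34.7%), against 14.8%. The counts differed by side, with 203 of 300 genes (67.7%) proximal to the ARF-104 breakpoint at 0.25 or more in at least 4 tumours and 139 of 498 (27.9%) distal to it. The lists below differ in their share of proximal genes, so counts set against 42.9% are also to be read beside these shares. The median gene had 0.36 in ARF-104 on the proximal side and 0.01 on the distal side, while the proximal and distal medians were 0.56 and 0.69 in ARF-129, 0.48 and 0.60 in ARF-112, 0.44 and 0.49 in ARF-110, and both -0.09 in ARF-128.

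Genes whose human counterparts lie near MYC on chromosome 8 shared the level of the proximal part. All 24 of 26 listed orthologues with a probe lay proximal to the ARF-104 breakpoint, and 18 of the 22 with a value in every tumour reached 0.25 in at least 4, against 67.7% of all proximal genes. Their medians were 0.63 in ARF-129, 0.53 in ARF-112, 0.43 in ARF-110, 0.40 in ARF-104 and -0.05 in ARF-128. In the same order, the 300 proximal genes with a value in every tumour had 0.56, 0.48, 0.44, 0.36 and -0.09. All chromosome 15 genes had 0.64, 0.56, 0.47, 0.16 and -0.07. Ndrg1, a stress-response gene, averaged 0.79 ± 0.26 (SD, n = 5), with 1.01 in ARF-129, 0.93 in ARF-112, 0.37 in ARF-110, 0.71 in ARF-104 and 0.91 in ARF-128. The sparser array of ARF-128 gave -0.17 for Ndrg1, and normexp a mean of 0.50. Sqle, an enzyme of cholesterol synthesis, averaged 0.60 ± 0.26, and Has2, a synthase of the matrix polysaccharide hyaluronan, 0.60 ± 0.09. Mtss1 averaged 0.56 ± 0.26 over all of its 18 probes, and was lowest in ARF-104, at 0.29. The lowest of this list were Tatdn1, with 0.08 ± 0.36, and Zhx1, a transcriptional repressor, with 0.12 ± 0.45. ARF-128 had -0.53 and -0.62 for them.

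Of the growth and cell-cycle regulators, 21 of 22 had a probe and 10 of 21 reached 0.25 in at least 4 tumours, against 42.9% over all chromosome 15 genes. Recql4, a DNA helicase, averaged 0.80 ± 0.39 (SD, n = 5), with 0.69 on the denser and 0.05 on the sparser array of ARF-128, and Pdgfb, a chain of platelet-derived growth factor, 0.71 ± 0.47. Pdgfb had 0.55 in ARF-104, although that gene lies in the part of ARF-104 that was not gained, with 1.22 in ARF-129, 1.11 in ARF-112, 0.64 in ARF-110 and 0.06 in ARF-128, whose sparser array gave 0.67. Azin1, an activator of polyamine synthesis, averaged 0.51 ± 0.24. Prkaa1, a catalytic subunit of the energy sensor AMPK, was the only member below 0, with -0.11 ± 0.47 (0.04 with normexp), and had 0.40 in ARF-110 while the other 4 tumours lay between -0.89 and 0.02. Rictor, a component of mTORC2, and Deptor, an inhibitor of mTOR, averaged 0.30 ± 0.28 and 0.49 ± 0.23. Ptk2, with 35 probes between 73290471 and 73475299, distal to the break, had -0.08 in ARF-104, with 0.57 in ARF-129, 0.38 in ARF-112 and 0.51 in ARF-110. Ptk2 and Pdgfb are both distal to the break, so that genes of 1 segment, read by 35 and 3 probes, differed widely in ARF-104.

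Of 12 translation and RNA-binding genes, 5 reached 0.25 in at least 4 tumours, against 42.9% over all chromosome 15 genes. Eif3e, a subunit of the translation initiation factor eIF3, had the smallest SD of the list, with 0.72 in ARF-129, 0.59 in ARF-112, 0.49 in ARF-110, 0.56 in ARF-104 and 0.42 in ARF-128. Rpl8, a ribosomal protein, averaged 0.46 ± 0.28 (SD, n = 5), Rbfox2, a splicing regulator, 0.40 ± 0.35, and Pabpc1, the poly(A)-binding protein, 0.37 ± 0.21. Rpl3 and Rpl30, ribosomal proteins, averaged below 0. Rpl3, read by 1 probe, had -0.67 in ARF-129, -0.62 in ARF-112, 0.29 in ARF-110, -0.76 in ARF-104 and -0.79 in ARF-128, and -0.74 on the sparser array of ARF-128. Rpl30, also read by 1 probe, had a mean of -0.34 ± 0.96 because of -2.02 on the denser array of ARF-128, whose sparser array read -0.24.

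Of 10 Wnt, Hippo and polarity genes, 6 reached 0.25 in at least 4 tumours, against 42.9% over all chromosome 15 genes, and none was below 0 in the mean. In ARF-104 the distal members Wnt10b, a Wnt ligand, Celsr1, a cadherin of planar polarity, and Prickle1, a planar polarity protein, had -0.15, -0.11 and -0.04. Wnt7b, also a Wnt ligand, averaged 0.56 ± 0.30 (SD, n = 5), and Scrib, a cell polarity scaffold, 0.55 ± 0.29. Dab2, an endocytic adaptor, averaged 0.50 ± 0.26, and the Wnt receptor Fzd6 0.47 ± 0.22. Stk3, a Hippo pathway kinase with 35 probes, averaged 0.35 ± 0.23 and had 0.54 in ARF-129, 0.45 in ARF-112, 0.41 in ARF-110, 0.40 in ARF-104 and -0.06 in ARF-128. With many probes, Stk3 followed the segment of each tumour.

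Growth factors, cytokines and receptors had 11 of 16 genes at 0.25 or more in at least 4 tumours, against 42.9% over all chromosome 15 genes. Of the 17 with a probe, 10 lay proximal to the ARF-104 breakpoint. The share was 67.7% over all proximal genes and 27.9% over all distal ones. Amhr2, the receptor of anti-Mullerian hormone, averaged 0.94 ± 0.48 (SD, n = 5), but its 1.54 on the denser array of ARF-128 was 0.04 on the sparser one, and normexp gave a mean of 0.42. Ptger4, a prostaglandin E2 receptor, averaged 0.61 ± 0.30, and Igfbp6, which binds insulin-like growth factors, 0.60 ± 0.37. Osmr, the oncostatin M receptor, averaged 0.49 ± 0.17, and Il7r, the interleukin-7 receptor, 0.47 ± 0.11 with 0.34 in ARF-128. No member of this list averaged below 0. Ghr, the growth hormone receptor, with 32 probes near the start of the chromosome, averaged 0.44 ± 0.21.

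Genes of NF-kB and innate signalling had the highest median of the lists with at least 10 genes in ARF-112 and ARF-129, at 0.71 and 0.84, with 0.51 in ARF-110, 0.20 in ARF-104 and 0.25 in ARF-128. These medians rest on the genes' own probes. With each gene given the level of its segment, the median of the means over tumours was 0.35 instead of 0.49. All lists then lay between 0.34 and 0.38. Of the 12 NF-kB and innate signalling genes with a value in all tumours, 6 reached 0.25 in at least 4. The share was 42.9% over all chromosome 15 genes and 27.9% over the distal ones. Of the 13 with a probe, 2 lay proximal to the break. Sharpin, a subunit of the linear ubiquitin chain assembly complex, averaged 0.96 ± 0.32 (SD, n = 5) from 1 probe, but 0.31 with normexp, and had 1.37 on the denser and 0.20 on the sparser array of ARF-128. Mapk12 and Mapk11, both p38 kinases, averaged 0.95 ± 0.38 and 0.71 ± 0.30, and Card10, an adaptor of NF-kB activation, 0.76 ± 0.29. Mapk12 had 1.41 in ARF-129, 1.22 in ARF-112, 0.54 in ARF-110, 0.59 in ARF-104 and 0.99 in ARF-128, and was thus above 0.25 also where the segment was not gained.

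Chromatin and transcription factors lay mostly in the distal part, 26 of 30, and 10 of 28 reached 0.25 in at least 4 tumours, against 27.9% of the distal genes. Osr2, a zinc finger transcription factor read by 1 probe, averaged 1.24 ± 0.45 (SD, n = 5), with 1.481 in ARF-129, 1.28 in ARF-112, 0.46 in ARF-110, 1.36 in ARF-104 and 1.62 in ARF-128, whose sparser array gave 0.54. The Hoxc cluster, homeobox genes that pattern the body axis, showed how far neighbouring probes differed. Its 9 named genes span 111 kb, 7 of them with 1 probe. In ARF-104 they ran from -0.84 at Hoxc5 to 0.49 at Hoxc10, and on the denser array of ARF-128 from -1.31 at Hoxc11 to 1.21 at Hoxc6, within 1 segment each. Of the list, 5 genes were below 0 in the mean, among them Hoxc5 (-0.36 ± 0.44), Hoxc9 (-0.10 ± 0.81), Atf1 (-0.15 ± 0.48) and Smarcd1 (-0.15 ± 0.76). With normexp the means of Hoxc9, Atf1 and Smarcd1 were above 0, at 0.21, 0.06 and 0.03. Hoxc8, Hoxc6 and Hoxc10 averaged 0.73 ± 0.36, 0.72 ± 0.42 and 0.66 ± 0.26. With normexp the means of Hoxc8 and Hoxc10 were 0.22 and 0.21, and on the sparser array of ARF-128 Hoxc8 had 0.13.

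Adhesion, cytoskeleton and matrix genes had 11 of 19 at 0.25 or more in at least 4 tumours, against 42.9% over all chromosome 15 genes, and none averaged below 0. Has2 led the list, followed by Parvg, a parvin that links integrins to actin (0.57 ± 0.36, SD, n = 5), Lima1, an actin-bundling protein (0.55 ± 0.45), and Cdh6, a cadherin (0.50 ± 0.14). Ctnnd2, with 115 probes the most of any gene in these lists, had 0.50 in ARF-129, 0.40 in ARF-112, 0.43 in ARF-110, 0.33 in ARF-104 and -0.07 in ARF-128. Among 11 listed keratins and mesothelial markers 3 had a probe under those names. Krt18, Krt7 and Upk3a averaged 0.55 ± 0.27, 0.43 ± 0.23 and 0.43 ± 0.50. Copy number of a marker gene says nothing of its expression, and no cell type was checked with it.

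Of 13 genes known as tumour suppressors or growth restrainers, 7 reached 0.25 in at least 4 tumours, against 42.9% over all chromosome 15 genes. Beside Ndrg1, the highest were Sun2, a nuclear envelope protein (0.62 ± 0.35, SD, n = 5), Dab2 and Kmt2d, a histone methyltransferase (0.49 ± 0.54). Bik, a pro-apoptotic BH3-only protein, was the lowest, at 0.03 ± 0.45. Mitochondrial and metabolic genes had 6 of 17 at 0.25 or more in at least 4, a count to be read beside the same 42.9%. Cox6c, a subunit of cytochrome c oxidase read by the probe shown above, averaged 1.34 ± 0.51, with 2.10 in ARF-129, 1.497 in ARF-112, 0.71 in ARF-110, 1.201 in ARF-104 and, where the chromosome was not called gained, 1.21 and 1.18 on the denser and sparser arrays of ARF-128. Pmm1, a phosphomannomutase, averaged 0.75 ± 0.27, and Cyc1, cytochrome c1, 0.60 ± 0.39. Below 0 in the mean were Ndufa6, of complex I (-0.27 ± 0.75), Mpst, a sulfurtransferase (-0.16 ± 0.54), Slc38a2, an amino acid transporter (-0.04 ± 0.43), and Dgat1, an enzyme of triglyceride synthesis (-0.03 ± 0.57). With normexp the means of Mpst, Dgat1 and Slc38a2 were above 0, at 0.13, 0.14 and 0.03, with ARF-128 from its sparser array that of Ndufa6 was 0.034, and on the probe names shared by both designs that of Dgat1 was 1.08. These 4 genes were above 0 in ARF-110.

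**Figure D5:**
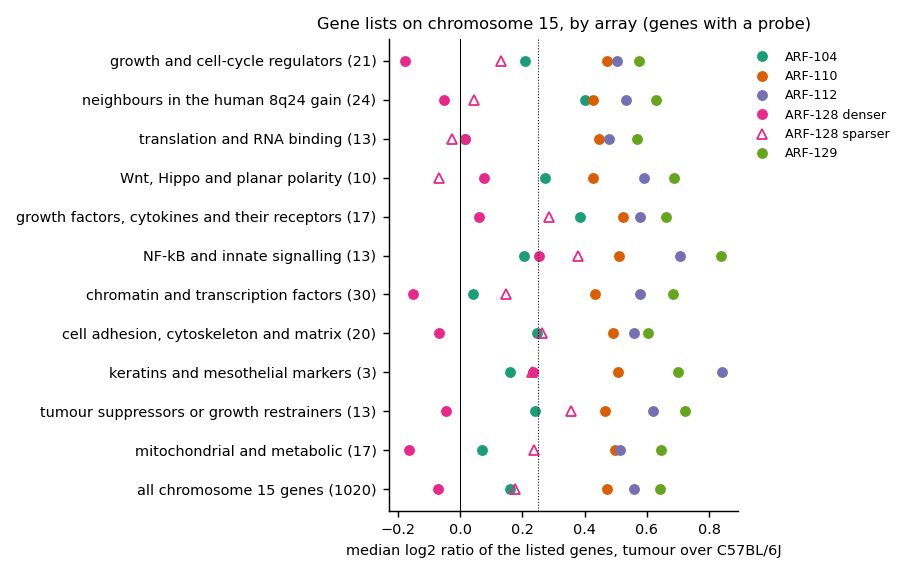
Each point is the median log2 ratio of tumour over C57BL/6J of the genes of 1 list on 1 array, with the number of genes with a probe in brackets and all 1020 named chromosome 15 genes in the bottom row. ARF-110, ARF-112 and ARF-129 lie above the dotted threshold of 0.25 in every row, and ARF-104 ranges from 0.02 for translation genes to 0.40 for the human chromosome 8 neighbours.

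Relative to the chromosome 15 median of each array, 8 genes of at least 2 probes stood highest in their lowest tumour. They were Vps28, Atg101, DX573840, Zfp7, Med30, Aaas, Cyp2d26 and Pmm1, with means between 0.65 and 0.84. Atg101, an autophagy initiation factor, had 1.32 in ARF-129, 1.12 in ARF-112, 0.66 in ARF-110, 0.41 in ARF-104 and 0.67 in ARF-128, and averaged 0.84 ± 0.37 (SD, n = 5). Med30, a Mediator subunit, was more even, with 0.65 ± 0.13, and Vps28, of the ESCRT sorting machinery, averaged 0.81 ± 0.34. The 8 lowest in their highest tumour were BC038155, AK014485, Apobec3, AW549877, Tfcp2, Fbxo4, Kcnh3 and Mfng, with means between -0.26 and 0.06. Tfcp2, a transcription factor read by 7 probes, had 0.03 in ARF-129, 0.21 in ARF-112, 0.26 in ARF-110, -0.39 in ARF-104 and -0.60 in ARF-128. Fbxo4, which targets cyclin D1 for degradation, averaged 0.03 ± 0.31. None of these 16 genes formed a segment of its own on any array at the penalty used.

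The 2 arrays of ARF-128 disagreed more over chromosome 15 than elsewhere. Over the 1610 probes on both, the denser array averaged -0.17 ± 0.021 (SE) and the sparser one 0.16 ± 0.011, a difference of -0.32 ± 0.019. On the other 18 autosomes the same difference lay between -0.19 and -0.04, so chromosome 15 had the largest disagreement of the 19. These values were centred on all autosomal probes of each array, and the shared probes of the denser array lay low on every autosome. Centred on the probe names shared by both designs, chromosome 15 averaged -0.04 on the denser array and 0.16 on the sparser one. With each array centred on all of its probes, they had -0.16 and 0.22 distal to the ARF-104 breakpoint, and -0.18 and 0.06 proximal to it. Probe by probe they correlated at r = 0.39 over the chromosome. Both arrays had chromosomes 8 and 19 as their highest, at 0.33 and 0.34 on the denser and 0.41 and 0.43 on the sparser one over shared probes. Whether ARF-128 carries a gain of distal chromosome 15 in some of its cells cannot be told from these arrays.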

How the data were processed

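Genomic DNA of 5 tumours was measured on 6 two-colour Agilent arrays. Per the file headers, the authors obtained processed intensity values for both dyes, and a log10 ratio per spot, from Agilent Feature Extraction 8.5.1.1, 9.1.3.1 or 9.5.3.1. The deposited value table holds log10 ratios for the sparser and log2 ratios for the denser design. Coordinates are mm7, as 1 file header states. No source used here gives the sparser design's build.

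From the intensities, the log2 of red over green was averaged per probe without control spots and spots marked as outliers, and centred on the autosomal median. No loess was applied. Segments came from penalised least squares (penalty 5 log n, at least 5 probes), which was tested on simulated data, and a segment with a mean of at least 0.25 was called gained. Genes were given the average of the probes bearing their name. Of 1024 chromosome 15 gene names, 593 matched an accession, 16 a symbol and 8 a synonym in a RefSeq table of GRCm38.p6, from which only names were taken. The other 407 were kept.

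The G+C correction and the removal of shared probe deviations were added after seeing the data. The members, lists and rules were chosen with earlier results of these data known. Named were genes within 1 Mb of Myc and at steps, the 8 highest and 8 lowest genes with at least 2 probes by their lowest or highest tumour, and of each list the 4 highest and any below 0, of which 1 is not reported here. Other list members are named as examples, chosen after their values were seen. With 1 group, no test was made, and SDs measure the spread between tumours. The precision is limited by the number of arrays. Tools were Python 3.11.15, numpy 2.4.6, pandas 2.3.3, numba 0.67.0, matplotlib 3.10.9, R 4.3.3 and limma 3.58.1 (normexp only).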

Additional observations from a re-analysis of the deposited data

Results flagged for a closer look

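Of 77 results checked, 5 had 1 tumour far from the other 4 (a gap over 0.71 of the whole range, which chance gives in about 1 in 20 groups). A count of 5 in 77 is close to that rate. In 4 of the 5 flagged results the tumour set apart was ARF-128 on its denser array, the noisiest. Rpl30 had -2.02 in ARF-128, against -0.13 to 0.37 in the others, and AK014485, a transcript, -1.01 against -0.04 to 0.27. Pabpc1 had 0.015 in ARF-128, against 0.38 to 0.52, and Ptger4 0.10, against 0.66 to 0.86. Both values lay near the chromosome 15 level of ARF-128, -0.03, where no gain was called. On the sparser array of that tumour Pabpc1 had 0.33 and Ptger4 0.31. Rpl3 had 0.29 in ARF-110, the only tumour represented by the sparser design, against -0.79 to -0.62 in the others. The sparser array of ARF-128 read within the range of those others.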

How the results depend on the processing

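With normexp background correction the level of ARF-129 was 0.32 over the chromosome and 0.35 near Myc, against 0.62 and 0.65 in the values reported, the level of ARF-112 was 0.31, against 0.52, and 203 genes instead of 342 were at 0.25 or more in at least 4 tumours; the cause was not tested. With genes of at least 3 probes, where fewer genes were counted, there were 196. The distal segment on the sparser array of ARF-128 lay just under the threshold, and 34.4% of its bins were called gained without centring, with centring on autosomes other than 8, 12, 15 and 19, or at a threshold of 0.15. On the probe names shared by both designs the Myc neighbourhood, then 7 probes, was 0.67 in ARF-104 and 0.95 in ARF-129, and the gain of ARF-104 ended at 71.4 Mb. From its sparser array, the distal minus proximal difference of ARF-128 was 0.17 instead of -0.05, and the means of Rpl30 and Ndufa6 turned to 0.020 and 0.034, from -0.34 and -0.27. Leaving out each tumour in turn gave 59 to 93 bins gained in at least 3 tumours, 59 without ARF-112 or without ARF-129. It gave 0 to 59 bins in at least 4, with 59 only without ARF-128, since a gain in 4 then needs every tumour left. The count of genes ran from 100 without ARF-129 to 290 without ARF-128. Other settings raised it. It was 453 with ARF-128 from its sparser array and 409 with ARF-128 as the mean of both arrays. At a gene threshold of 0.15 it was 445, and with centring on autosomes other than 8, 12, 15 and 19 it was 382. Of 1137 recomputed values over all alternatives, 2 changed sign from a size of 0.25 or more, those of Rpl30 and Ndufa6. Values nearer to 0 changed sign too, among them the level and the Myc neighbourhood of ARF-128, the distal minus proximal difference of ARF-112 with the G+C trend removed, and the means of Prkaa1, Atf1, Hoxc9, Smarcd1, Mpst, Slc38a2, Dgat1, AW549877, AK014485, Apobec3, Mfng and Fbxo4. Means of single genes moved too. With normexp Sharpin was at 0.31, Amhr2 at 0.42, Hoxc8 at 0.22, Hoxc10 at 0.21, Ndrg1 at 0.50, Has2 at 0.36, Eif3e at 0.33 and DX573840 at 0.41. On shared probe names Dgat1 was at 1.08, Pmm1 at 1.32, Sun2 at 1.22, Mtss1 at 0.96, Dab2 at 0.13, Prkaa1 at -0.59 and Fbxo4 at -0.28. No paired analysis was possible because the 5 tumours form 1 group. The denser array of ARF-128 had the most noise and the lowest median red signal over background, 4.15 times against 5.78 to 11.1 on the others, and on the sparser design only 7 probes lay near Myc.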
